A study of Saccharomyces cerevisiae with 18 samples.

Results

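The aryl-alcohol dehydrogenase (AAD) family of Saccharomyces cerevisiae was followed through 6 members, AAD3, AAD4, AAD6, AAD10, AAD14 and AAD15, among 5268 genes tested on the same arrays. The members were taken by gene symbol, and the family was chosen by the course of these same log2 ratios after glucose addition, so the levels and differences of the 6 genes are given as a description and without a test. Each member was read by 1 probe spotted 2 times on every array.

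AAD proteins belong to the aldo-keto reductases, enzymes that use NADPH to interconvert aldehydes and alcohols. They were named for their likeness to the aryl-alcohol dehydrogenase of the lignin-degrading fungus Phanerochaete chrysosporium. The physiological substrates of the yeast proteins are poorly known. The genes lie near chromosome ends and are alike in sequence, and oxidants are known to induce some of them through the transcription factor Yap1, which also controls thioredoxin, glutathione and Old Yellow Enzyme genes.

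WT cells were grown until glucose was depleted and then inoculated into fresh synthetic complete medium with 2% glucose. RNA was taken from 2 cultures, a and b, at 9 times between 0 and 300 min after inoculation, which gives 18 two-colour arrays with 2 samples per time. On every array the sample was set against 1 common pool of WT RNA, so each value is a log2 ratio of sample over this pool, where 0 means the level of the pool and 1 a doubling. The titles call the strain wt-matA and the strain field reads BY4742, a MATα strain. In every array from 3 min on the mean log2 ratio of 4 genes specific to α cells lay between -5.06 and -4.24, far below the pool. That of 5 genes specific to a cells lay between 3.37 and 4.51, LYS2 between 3.11 and 4.47 and MET17 between -5.28 and -4.33, genes of lysine and methionine synthesis that are deleted in some laboratory strains. Sample and pool therefore differed in these strain markers, and whether this touches the level of a gene against the pool was not tested, while a difference between times cancels the pool.

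One array, that of culture a at 0 min (array 0a), stood apart. By their labels the samples of both cultures carried Cy5 at 0 min, yet the ratios of these arrays correlated at -0.92 across genes, and the α-cell genes had a mean of 4.63 on array 0a as labelled and of -4.05 on the other. The ratios of array 0a were therefore turned (multiplied by -1), and the main results against 0 min are also given as labelled and without the array. From 3 min on every sample of culture a was in Cy3 and every sample of culture b in Cy5, so culture and dye cannot be told apart. From 3 min on the arrays of the cultures correlated at 0.61 to 0.97 across genes, and 97.9 to 99.3% of the spots were above local background.

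All 6 members were measured well above background. Each of the 36 spot measurements of every member exceeded its local background in both channels and none was saturated. The raw intensities ran from 219.4 for AAD14 to 6921 for AAD10, and the median difference between the duplicate spots of a member was 0.017 to 0.040 on the log2 scale. Because the probes are long oligonucleotides and the genes are alike, RNA of 1 member may bind the probe of another, and the share of this in each value was not tested. In whole-culture RNA a change in every cell and a change in a subset of cells cannot be told apart.

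The levels of the family were higher at 3 min than at 0 min and lower again at 30 min. At 3 min all 6 members were above 0 min in both cultures, with a median difference of 0.57 on the log2 scale over the members and a range of 0.36 to 0.73. Over all genes 44% were higher in both cultures. The median was 0.49 in culture a and 0.63 in culture b, against -0.01 over all genes tested. At 30 min all 6 members were below 3 min in both cultures, with a median of -1.06 and a range of -1.25 to -0.52, where 45% of all genes were lower in both cultures. The comparison of 30 with 3 min uses no 0 min array.

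AAD10 had the widest course of the family. In cultures a and b its log2 ratios were 1.19 and 1.33 at 0 min, 1.74 and 1.90 at 3 min, 1.45 and 1.50 at 7.5 min, 1.01 and 1.09 at 15 min and 0.54 and 0.67 at 30 min. They were -0.09 and -0.10 at 60 min, -0.97 and -0.76 at 110 min, -1.26 and -1.07 at 150 min, and 0.75 and 0.84 at 300 min. The means of its 9 times spanned 2.98 on the log2 scale, and in the order of its levels none of the 8 steps between neighbouring times had overlapping cultures. AAD10 lay below the pool from 60 to 150 min and above it again at 300 min.

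AAD6 is annotated as a pseudogene in the reference table, which merges 2 open reading frames under this name. In cultures a and b its ratios were 0.76 and 0.82 at 0 min, 1.35 and 1.38 at 3 min, 0.96 and 1.05 at 7.5 min, 0.59 and 0.55 at 15 min and 0.25 and 0.36 at 30 min. They were 0.10 and 0.24 at 60 min, -0.24 and -0.08 at 110 min, -0.21 and -0.19 at 150 min, and 0.18 and 0.35 at 300 min. The span of its means was 1.57, and 3 of the 8 neighbouring steps overlapped, those between 30 and 300 min, 300 and 60 min, and 110 and 150 min. Within the cultures 7 of the 8 steps ran the same way in both, all but that between 110 and 150 min. For every member the order of the times is that of the means of these same cultures. Agreement of the cultures on a step is therefore partly set by that order.

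AAD14 and AAD4 had nearly the same course. In cultures a and b AAD14 stood at 0.93 and 0.57 at 0 min, 1.35 and 1.34 at 3 min, 1.10 and 0.90 at 7.5 min, 0.58 and 0.41 at 15 min, 0.10 and 0.09 at 30 min, 0.19 and -0.01 at 60 min, -0.05 and -0.06 at 110 min, 0.06 and -0.20 at 150 min, and 0.17 and -0.14 at 300 min. AAD4 stood at 0.64 and 0.31 at 0 min, 1.33 and 1.08 at 3 min, 0.88 and 0.85 at 7.5 min, 0.54 and 0.43 at 15 min, 0.18 and 0.10 at 30 min, 0.28 and 0.13 at 60 min, -0.05 and -0.12 at 110 min, 0.14 and -0.10 at 150 min, and 0.18 and 0.04 at 300 min. Both were above the pool in each culture until 15 min and within 0.28 of it from 30 min on. Their means spanned 1.41 and 1.29. The cultures overlapped in 6 of 8 neighbouring steps for AAD14 and in 5 of 8 for AAD4, including every step among the times from 30 min on. Within the cultures 5 of 8 steps of AAD14 and 7 of 8 steps of AAD4 ran the same way in both. The count for AAD4 includes the step from 30 to 300 min, with a gap of only 0.0003 in culture a.

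AAD3 and AAD15, which by gene order lie nearest to a chromosome end, changed least. In cultures a and b AAD3 had ratios of 0.32 and -0.20 at 0 min, 0.46 and 0.38 at 3 min, 0.46 and 0.06 at 7.5 min, 0.19 and 0.01 at 15 min, -0.12 and -0.32 at 30 min, 0.11 and -0.05 at 60 min, 0.07 and -0.12 at 110 min, 0.29 and -0.14 at 150 min, and 0.25 and -0.25 at 300 min. AAD15 had 0.17 and -0.13 at 0 min, 0.54 and 0.56 at 3 min, 0.71 and 0.40 at 7.5 min, 0.41 and 0.34 at 15 min, 0.11 and -0.06 at 30 min, 0.25 and 0.16 at 60 min, 0.21 and 0.11 at 110 min, 0.27 and 0.14 at 150 min, and 0.26 and -0.01 at 300 min. The cultures overlapped in all 8 neighbouring steps of AAD3, where culture a lay above culture b throughout. Within the cultures 3 min was its highest and 30 min its lowest level in both. In culture a the gap between 3 and 7.5 min was 0.0048, below the median difference of 0.036 between the duplicate spots of AAD3. With that gap counted, 3 of the 8 steps ran the same way in both, those between 3 and 7.5 min, 7.5 and 15 min, and 110 and 30 min. The order of its other times differed between the cultures. For AAD15 the means at 7.5 and 3 min, 0.56 and 0.55, did not differ beyond that spread, while the steps from 3 to 15 min and from 15 min to the next level did not overlap. Of the 8 steps of AAD15, 4 ran the same way in both cultures. Their means spanned 0.64 for AAD3 and 0.53 for AAD15.

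**Figure D1:**
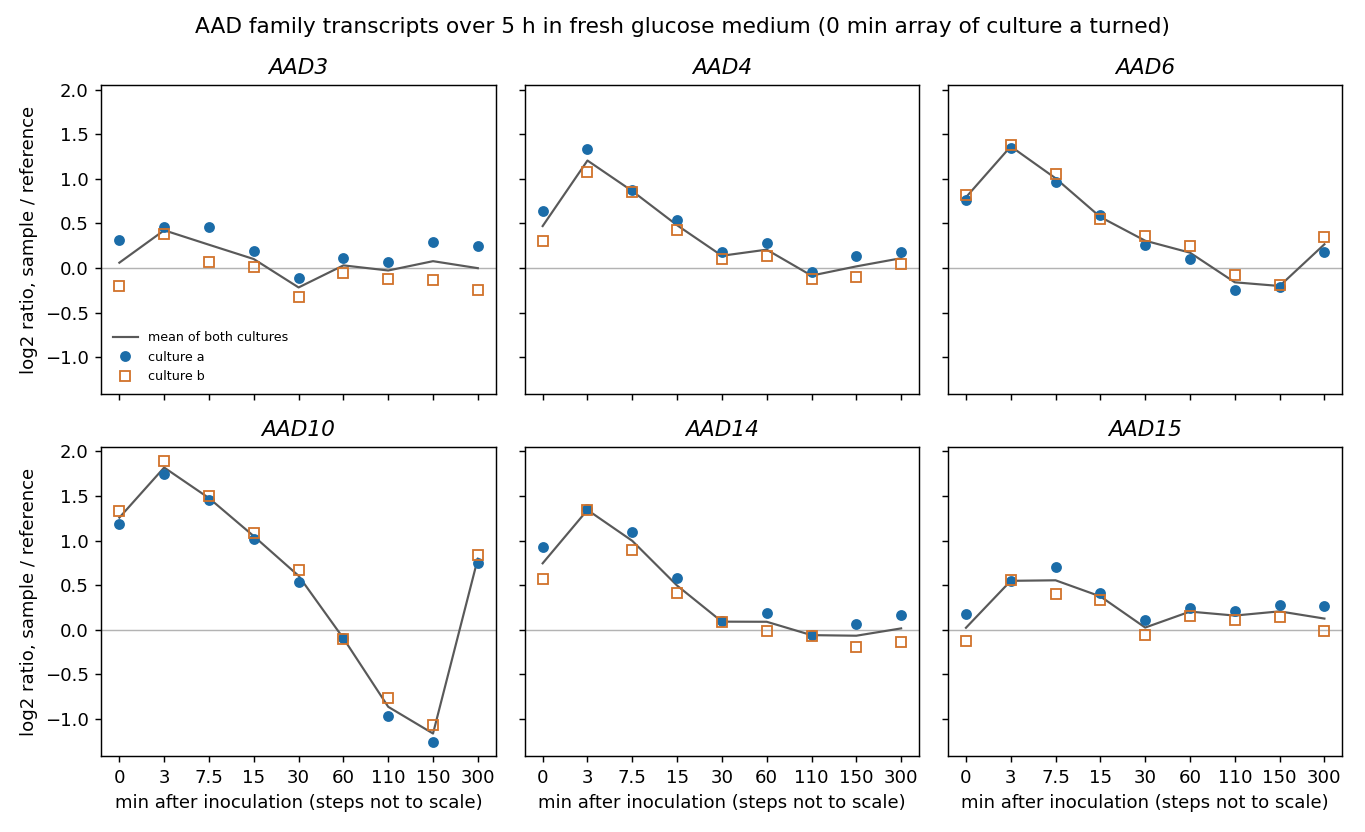
Log2 ratio of sample over the common pool (y axis) at each time after inoculation (x axis, times evenly spaced) for the 6 AAD members. Filled circles are culture a, open squares culture b and the line is their mean, with array 0a turned. The mean of 5 members is highest at 3 min and that of AAD15 at 7.5 min, and AAD10 spans 2.98 while AAD15 spans 0.53.

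The sign of the difference between the cultures depended on the gene, and its size varied over the times. From 3 min on culture a was above culture b at 8 of 8 times for AAD3, AAD4 and AAD14 and at 7 of 8 times for AAD15, with mean differences of 0.27, 0.13, 0.15 and 0.14. The difference ran from 0.079 to 0.50 for AAD3, from 0.031 to 0.26 for AAD4, from 0.011 to 0.31 for AAD14 and from -0.012 to 0.31 for AAD15. For AAD6 and AAD10 culture a was above culture b at 1 of 8 times, with mean differences of -0.09 and -0.11 and ranges of -0.17 to 0.038 and -0.21 to 0.018. These offsets run with dye and culture alike.

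Comparing 3 min with 0 min, AAD4 was 0.73 higher on the log2 scale (standard error 0.12, 1.66-fold), AAD14 0.60 (standard error 0.14), AAD6 0.57 (standard error 0.08), AAD10 0.56 (standard error 0.09), AAD15 0.53 (standard error 0.13) and AAD3 0.36 (standard error 0.21). For AAD3 the cultures gave 0.15 and 0.58, the widest disagreement in this comparison. No member was over 1.7-fold higher in both cultures, a bound that 10.6% of all genes passed. With array 0a as labelled the median of the members was 1.35, and without that array 0.65, so the direction held in these settings and the size did not. With every array shifted to its external control spots, which moves the median of all genes to 0.41 at 3 min and to between 0.48 and 0.82 at the later times, the members' median at 3 min was 0.99.

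Comparing 30 min with 3 min, AAD14 was lower by a log2 difference of -1.25 (standard error 0.14, 2.38-fold), AAD10 by -1.21 (standard error 0.09, 2.32-fold), AAD4 by -1.07 (standard error 0.12), AAD6 by -1.06 (standard error 0.08), AAD3 by -0.64 (standard error 0.21) and AAD15 by -0.52 (standard error 0.13). AAD4, AAD6, AAD10 and AAD14 were over 1.7-fold lower in both cultures, 4 of 6 members, where 6.78% of all genes were. AAD3 (-0.58 and -0.70 in cultures a and b) and AAD15 (-0.43 and -0.61) were lower in both cultures without reaching that bound in both. The decrease was spread over each step, with a median of -0.34 at 7.5 min against 3 min, of -0.40 at 15 min against 7.5 min and of -0.35 at 30 min against 15 min. AAD15 did not share the first of these steps, with a difference of 0.006 at 7.5 min against 3 min. With the shift to the control spots the median at 30 min against 3 min was -0.90 and 2 of the 6 members passed 1.7-fold in both cultures.

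**Figure D2:**
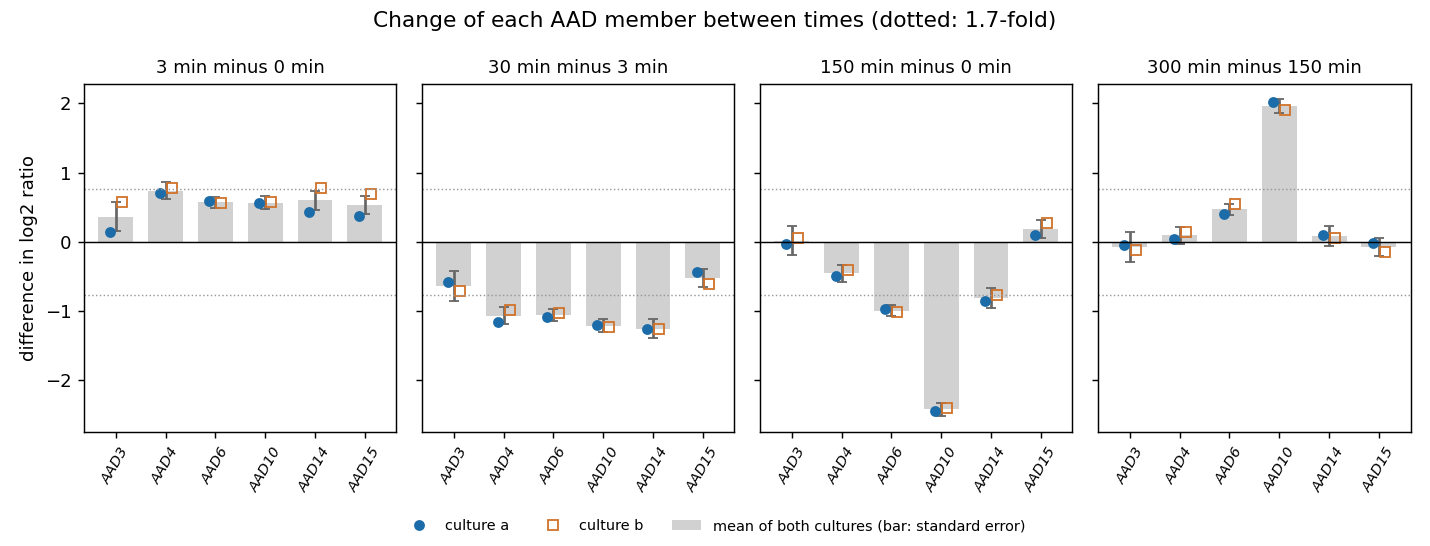
Difference in log2 ratio (y axis) of each AAD member between a later and an earlier time, 1 panel for each pair of times. Grey bars are means of both cultures with the standard error of the fit over all genes, filled circles culture a, open squares culture b and dotted lines a 1.7-fold change. All 6 members lie above 0 in the first panel and below 0 in the second, and in the last panel AAD10 at 1.96 stands alone beyond the dotted line.

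After 30 min the members parted. At 150 min AAD10 was -2.42 from its 0 min level on the log2 scale (standard error 0.09, 5.35-fold lower), made up of -2.45 and -2.39 in cultures a and b. AAD6 differed by -0.99 (standard error 0.08), AAD14 by -0.81 (standard error 0.14), AAD4 by -0.45 (standard error 0.12), AAD3 by 0.02 (standard error 0.21) and AAD15 by 0.18 (standard error 0.13). AAD6 and AAD10 were over 1.7-fold lower in both cultures, 2 of 6, where 19.2% of all genes were. The median of the members at 150 min against 0 min was -0.63 with the array turned, 0.15 as labelled and -0.46 without the array. AAD10 was -1.23 as labelled and -2.49 without the array. AAD6 was -0.23 as labelled, short of 1.7-fold, and -1.02 without the array, and AAD14 was 0.11 as labelled. With the shift to the control spots the signs of AAD3, AAD4 and AAD15 at 150 min were positive (0.78, 0.32 and 0.95), AAD10 stood at -1.65, AAD6 at -0.23 and AAD14 at -0.04, and the median of the members was 0.14.

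At 60 min against 30 min AAD3, AAD4 and AAD15 were higher in both cultures, by 0.25, 0.07 and 0.18, and AAD6 and AAD10 were lower, by -0.13 and -0.70 (standard errors 0.08 and 0.09). Over all genes 38.9% were higher and 49.7% lower in both cultures. With the shift to the control spots AAD6 was 0.11 in this step and AAD10 -0.45. At 110 min against 60 min all 6 members were lower in both cultures, as were 42.2% of all genes, by -0.77 for AAD10 and by a median of -0.22.

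At 300 min AAD10 was 1.96 above 150 min on the log2 scale (standard error 0.09, 3.89-fold), made up of 2.01 and 1.91 in cultures a and b. This was the only member over 1.7-fold higher in both cultures, where 0.323% of all genes, 17 of 5268, were. AAD6 was next with 0.47 (standard error 0.08), and the other four members differed by -0.08 to 0.09. At 300 min AAD10 was -0.46 from its 0 min level with array 0a turned and -0.53 without that array. It was 0.73 as labelled and 0.33 with the shift to the control spots, so its sign against 0 min depended on the setting.

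The 17 genes were looked at after their values were seen. The 4 with the largest differences at 300 min against 150 min were the biotin genes BIO3 (3.86), BIO5 (3.44), BIO4 (2.80) and BIO2 (2.67), which encode 3 enzymes of biotin synthesis and, as BIO5, the carrier of a biotin precursor. They were followed by YJR154W (2.48), the biotin transporter gene VHT1 (2.31), the aldehyde dehydrogenase gene ALD6 (2.001) and AAD10 in the eighth place. At 150 min BIO3, BIO5, BIO4, BIO2 and VHT1 had mean log2 ratios of -3.33, -2.75, -2.31, -2.30 and -2.13, and AAD10 -1.16. At 300 min these genes stood between 0.18 and 0.69, and AAD10 at 0.80. In the same comparison the cultures of each of these genes differed by at most 0.5 on the log2 scale.

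The courses of some members over the 18 arrays were more alike than those of others. The correlation across arrays, which share the pool, the times and the cultures, ran from 0.32 between AAD3 and AAD10 to 0.97 between AAD4 and AAD14, with a median of 0.75 over the 15 pairs. AAD6 was close to AAD4 (0.92), AAD14 (0.93) and AAD10 (0.93), while AAD3 was closest to AAD15 (0.86). AAD10 and AAD4 correlated at 0.79. Over the 16 arrays from 3 min on the lowest value was again that of AAD3 and AAD10, at 0.37, and the highest 0.99, of AAD4 and AAD14. These correlations include the offset between cultures as well as the course. From 3 min on the mean offset of culture a from culture b was positive for AAD3, AAD4, AAD14 and AAD15. It was negative for AAD6 and AAD10.

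**Figure D3:**
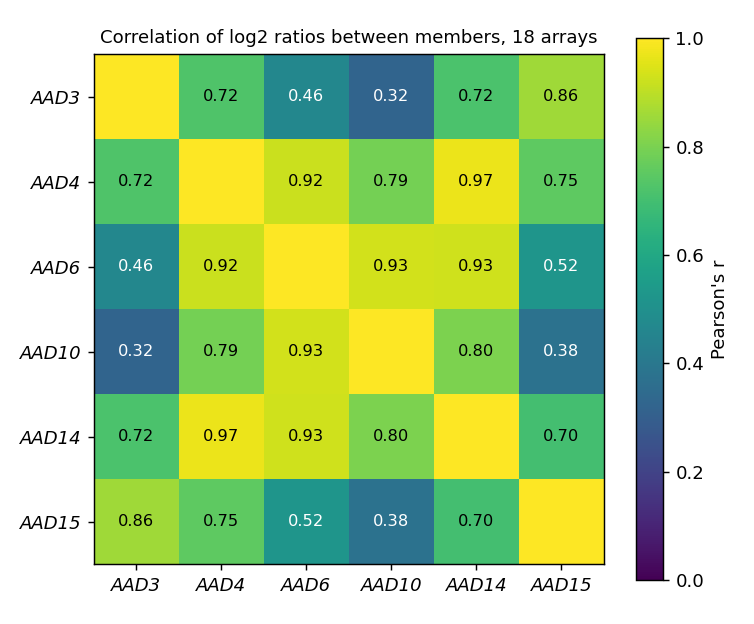
Pearson's r between the log2 ratios of each pair of AAD members over the 18 arrays, with array 0a turned. Both axes list the 6 members and the colour scale runs from 0 to 1. AAD4, AAD6 and AAD14 correlate at 0.92 to 0.97, and AAD10 with AAD3 at 0.32.

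Outside the family, some of the genes most like a member were shared between members and others were not. AAD10 had the closest partners, YJR154W (r = 0.99, rho = 0.99), a gene of unknown function, BIO3 (r = 0.99, rho = 0.96), the aminotransferase of biotin synthesis, and BIO2 (r = 0.96, rho = 0.90), biotin synthase, over 18 arrays. BIO3 moved farther than AAD10, with mean log2 ratios of 2.48 at 3 min, -3.33 at 150 min and 0.53 at 300 min. YJR154W lies next to AAD10 on the chromosome.

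**Figure D4:**
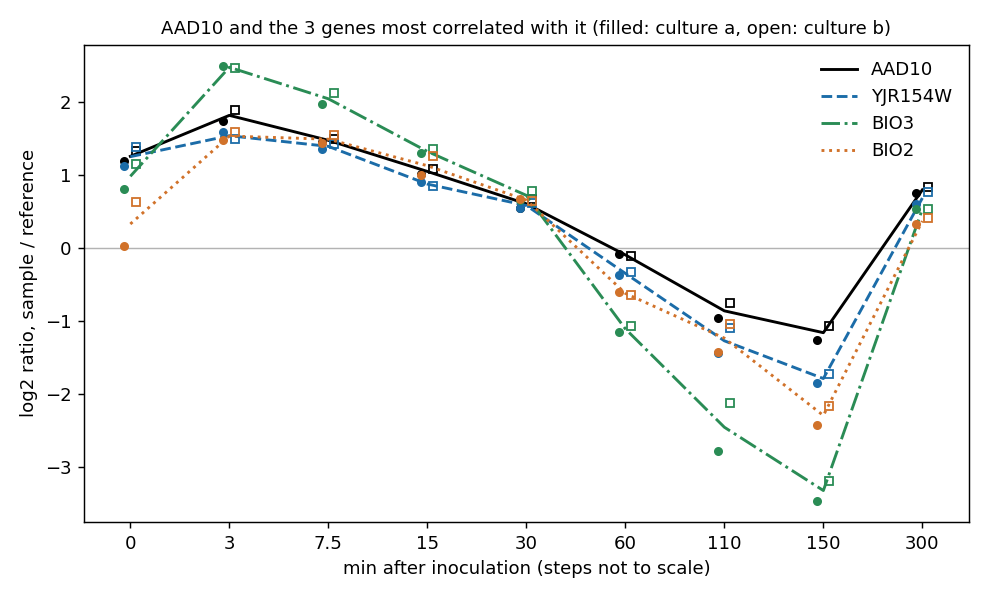
Log2 ratio of sample over the common pool (y axis) at each time after inoculation (x axis, times evenly spaced) for AAD10 and the 3 genes outside the family with the highest correlation with it. Lines are means of both cultures, filled circles culture a and open squares culture b. All 4 genes are lowest at 150 min, at -1.16 for AAD10 and -3.33 for BIO3, and above the pool at 300 min.

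SDL1, a serine dehydratase gene that the reference table annotates as a pseudogene, was among the 3 most similar genes of AAD4 (r = 0.96), AAD14 (r = 0.95) and AAD6 (r = 0.95). Its mean log2 ratios from 0 to 30 min, in order of time, were 1.05, 2.53, 2.24, 1.18 and 0.58, at each time above the means of these 3 members. The others were RSM27 (r = 0.95), a mitochondrial ribosome gene, and GSH1 (r = 0.94), which encodes the first enzyme of glutathione synthesis, for AAD4, YPL277C (r = 0.94) and YOR389W (r = 0.94) for AAD6, and YBR027C (r = 0.97) and YLL053C (r = 0.96) for AAD14. AAD3 and AAD15 had weaker partners. Those of AAD3 were NMD4 (r = 0.93), NPR3 (r = 0.85) and MEI5 (r = 0.84), and those of AAD15 were MIP1, the mitochondrial DNA polymerase gene (r = 0.86), FRT1 (r = 0.86) and NMA2 (r = 0.86). In each of these partners culture a lay above culture b at every time, so their correlations include the offset between cultures as well as the course. The means of MEI5 ran only from -0.056 to 0.090. By Spearman's rho in place of Pearson's r, YJR154W and BIO3 were again the first for AAD10. SDL1 was no longer among the 3 for AAD6 and AAD14. Those of AAD6 were then YPL277C (rho = 0.98), YJR154W (rho = 0.98) and BIO3 (rho = 0.97). AAD6 thus shared YJR154W and BIO3 with AAD10 by this measure.

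The neighbourhood of the members was read from the order of genes in the reference table. Each member was the 2nd to 11th gene from a chromosome end, with AAD3 and AAD15 at the 2nd place. A THI5-family gene, whose product makes the pyrimidine of thiamine, lies beside AAD4 (THI13), AAD6 (THI5), AAD10 (THI11) and AAD14 (THI12). Among these THI genes THI11 alone was measured by a probe of its own name. Whether that probe also binds RNA of the other THI genes was not tested. THI11 differed by -0.33 at 3 min against 0 min and by -0.19 at 300 min against 150 min, where AAD10 differed by 0.56 and 1.96. On its other side YJR154W differed by 0.29 at 3 min against 0 min, by -0.96 at 30 min against 3 min, by -3.05 at 150 min against 0 min and by 2.48 at 300 min against 150 min. RDS1, next to AAD3, differed by 0.38 at 3 min against 0 min and by -0.50 at 30 min against 3 min, where AAD3 differed by 0.36 and -0.64. At 150 min against 0 min RDS1 differed by 0.53 and AAD3 by 0.02. At 30 min against 3 min YDL242W, next to AAD4, differed by 0.17 and RPD3, the histone deacetylase gene next to AAD14, by 0.03. AGP3, an amino acid permease gene next to AAD6, differed by -0.30 in that comparison. At 3 min against 0 min YDL242W, RPD3 and AGP3 differed by 0.05, -0.54 and 0.003. At 150 min against 0 min they differed by 0.23, -0.41 and -0.77, where AAD4, AAD14 and AAD6 differed by -0.45, -0.81 and -0.99.

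Set beside the family were 3 lists of genes with related roles, each gene compared with 0 min by limma over all 5268 genes and called where the adjusted p was under 0.01 and the change over 1.7-fold. Over all genes the share called higher was 12.2%, 17.4% and 19.7% after 3, 30 and 150 min, and the share called lower 13.4%, 19.6% and 20.4%. With array 0a as labelled the share higher was 1.97%, 1.52% and 0%, and the share lower 2.41%, 2.18% and 0.019%. All p-values here rest on the spread between 2 cultures at each time.

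The list of YAP1 and its targets in oxidative defence was mostly higher at 3 min, though YAP1 itself was not. Of 19 measured genes 12 were higher and 0 lower by limma at 3 min (15 and 2 where the unadjusted p was under 0.05), with a median of 1.37, against 0.57 for the AAD members and -0.01 over all genes. As labelled 6 were higher and the median was 1.06. After 30 min 3 were higher and 3 lower with a median of 0.06, and after 150 min 4 were higher and 7 lower with a median of -0.38. GPX2, a glutathione peroxidase, rose at 3 min by a log2 difference of 4.15 (limma adjusted p = 8.88e-09) and OYE3, an Old Yellow Enzyme, by 3.12 (limma adjusted p = 2.3e-08). As labelled OYE3 was also called (4.75, limma adjusted p = 0.00159) and GPX2 was not (1.06, limma adjusted p = 0.602). Without array 0a the differences at 3 min were 3.24 for OYE3 and 4.21 for GPX2. OYE3 was -0.64 at 30 min, which is short of the fold bound, and was lower at 150 min (-1.64, limma adjusted p = 1.38e-06). The peroxiredoxin gene AHP1 was higher at 3 min (1.99, limma adjusted p = 0.000989) and at 150 min (2.77, limma adjusted p = 5.33e-05). TSA1, another peroxiredoxin gene, was not called at 3 min (1.25, limma adjusted p = 0.0371) and was called higher at 150 min (2.13, limma adjusted p = 0.00153), a call that was lost without array 0a (1.98). As labelled neither gene was called, and at 150 min both had -0.27. OYE3 at 150 min was also not called as labelled (-0.01). YAP1 was -0.27 and PRX1 -0.72 at 3 min, both short of the fold bound. At 30 min YAP1 was called lower (-1.05, limma adjusted p = 8.88e-08). As labelled these values were 0.78, 0.68 and -0.004, with no call.

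The other aldo-keto reductases were lower or not called at 3 min. Of 7 measured genes 0 were higher and 3 lower by limma (0 and 5 where the unadjusted p was under 0.05), with a median of -0.65. At 30 min 5 were lower (median -2.02) and at 150 min 5 were lower (median -1.61), with 0 higher by limma in either comparison (0 and 1 where the unadjusted p was under 0.05). GCY1, a glycerol dehydrogenase, fell at 3 min (-1.73, limma adjusted p = 2.26e-06) and was lower still at 150 min (-3.40, limma adjusted p = 3.46e-09). ARA1, an arabinose dehydrogenase, and YJR096W fell at 3 min by -1.42 and -1.58 (limma adjusted p = 1.39e-07 and 1.37e-08), and YDL124W was lower at 30 min (-2.02, limma adjusted p = 0.000662), made up of -1.12 and -2.92 in cultures a and b, with -2.90 without array 0a and -1.91 and no call as labelled (limma adjusted p = 0.023). As labelled 0 of the 7 were lower by limma at 3 min (1 where the unadjusted p was under 0.05) with GCY1 at 1.53 (limma adjusted p = 0.473), YJR096W at 0.43 and ARA1 at -0.43, and at 150 min GCY1 had -0.14 without a call, while without the array 4 were lower.

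The alcohol dehydrogenases and the Ehrlich pathway, which turns amino acids into fusel alcohols, were mixed. Of 20 measured genes 6, 10 and 8 were higher after 3, 30 and 150 min and 2, 5 and 7 were lower, with medians of 0.65, 1.04 and 0.48. PDC1, the main pyruvate decarboxylase, was higher at 30 min (3.76, limma adjusted p = 0.000271), made up of 5.24 and 2.27 in cultures a and b. Without array 0a it was 2.34 and still called, and as labelled -1.20 and not called (limma adjusted p = 0.711). BDH2, a butanediol dehydrogenase, was lower at 3 min (-0.85, limma adjusted p = 0.000596) and lower still at 150 min (-4.45, limma adjusted p = 5.35e-10). ARO10, a decarboxylase of the Ehrlich pathway, and BAT2, the cytosolic branched-chain transaminase, were lower at 150 min by -3.01 and -3.23 (limma adjusted p = 3.5e-06 and 3.4e-08). As labelled 2 of the 20 were higher at 3 min, the NADPH-dependent alcohol dehydrogenases ADH6 (2.53, limma adjusted p = 0.000107) and ADH7 (2.10, limma adjusted p = 0.000764), which had 3.22 and 2.59 with the array turned, and BDH2 stood at 2.83 without a call (limma adjusted p = 0.266). As labelled BDH2, ARO10 and BAT2 had -0.77, 0.76 and -0.20 at 150 min, with no call. Without array 0a their differences at 150 min were -4.63, -3.17 and -3.64.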

How the data were processed

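Two-colour oligonucleotide arrays with a common reference pool were used, 1 for each of 2 cultures at 9 times. The deposited scanner files give spot intensities of both channels as the authors' image analysis wrote them, without background subtraction. The authors also deposited a table of log2 ratios, normalised by print-tip loess in the marray package per the study's methods, which was used as an alternative and correlated with the recomputed ratios at 0.9998 or more on every array. Columns of comparisons were not used. The members, lists and contrasts were chosen with earlier results of these data known.

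Log2 ratios of sample over pool were computed from the intensities with R 4.3.3 and limma 3.58.1, by 1 loess curve per print tip (span 0.4, 48 print tips) without background correction. Spots saturated above 32768 and control spots had weight 0 in the curves. The 2 spots of a probe were averaged. Of 6388 probes 5326 had 1 gene name (60 through an older symbol), 19 mitochondrial and 26 transposable element probes were left out as in the study's methods, and 13 further probes were dropped for a brighter probe of the same gene, which left 5268 genes.

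Differences between times came from 1 linear model over the 18 arrays with a mean for each time (9 residual degrees of freedom), with standard errors moderated by eBayes and Benjamini-Hochberg adjustment over all genes. The model had no term for the culture, so a steady difference between the cultures adds to the standard errors. Genes named beyond the 6 members were the called genes of each list with the largest change against 0 min (up to 4 a list). Added to these were the 3 genes with the highest Pearson's r with each member and the neighbours on the chromosome. ADH6, ADH7, YAP1, PRX1 and the genes higher at 300 min than at 150 min were chosen after their values were seen. Gene names and order came from the RefSeq R64 table. On simulated data of 5268 genes, made for 30 min against 0 min, 80 of 100 genes changed by 1 on the log2 scale, 96 of 100 changed by 2 and 0 of 5068 without a change were called. The share of changed genes was smaller there than the share called in the data (17.4% higher and 19.6% lower). These counts therefore do not give the error rates of the calls.

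The cultures pair the arrays, since each culture was sampled at all times: a gene's difference between the cultures correlated from 3 min on at 0.39 to 0.90 over the 28 pairs of times (median 0.62), while the difference at 0 min correlated with later ones at 0.26 to 0.64 with that array of culture a turned and at -0.23 to 0.13 as labelled. The number of arrays limits the precision. Alternatives were the direction and the use of the array of culture a at 0 min, the deposited table, 1 loess curve per array, normexp background correction with an offset of 50, a shift to 6 kinds of external control spots, leaving out spots less than 2 standard deviations above background, the culture as a block, only the times compared, and leaving out each array.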

Additional observations from a re-analysis of the deposited data

How the results depend on the processing

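The medians over the 6 AAD members against 0 min, in the order of the 8 later times, were 0.57, 0.24, -0.10, -0.41, -0.44, -0.68, -0.63 and -0.41. With the array of culture a at 0 min (array 0a) as labelled they were 1.35, 1.003, 0.59, 0.27, 0.28, 0.10, 0.15 and 0.27, so the sign turned from 15 min on. With the shift to the external control spots they were 0.99, 0.72, 0.38, 0.17, 0.39, 0.016, 0.14 and 0.38, where the median of all genes moves too, and the medians at 30 min against 3 min and at 300 min against 150 min were -0.90 and 0.11, against -1.06 and 0.087 without the shift. With 1 loess curve per array the medians were 0.29 after 7.5 min, -0.59 after 60 min, -0.72 after 150 min and -0.52 after 300 min, and 0.11 for 300 min against 150 min. The causes were not tested.

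Leaving out each array in turn gave, in the same order, 0.49 to 0.65, 0.24 to 0.44, -0.17 to 0.052, -0.52 to -0.32, -0.51 to -0.29, -0.82 to -0.51, -0.79 to -0.46 and -0.44 to -0.36. It gave -1.09 to -1.01 for 30 min against 3 min and -0.038 to 0.21 for 300 min against 150 min. At 15 min the sign turned without array 0a (0.052), and the median at 300 min against 150 min without the array of culture b at 150 min (-0.038) or of culture a at 300 min (-0.023). The 4 members past 1.7-fold at 30 min against 3 min were 4 in each of these fits and 2 with the shift to the control spots.

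With the culture as a replicate block the medians were equal to those above (0.57 at 3 min against 0 min) and no count of calls moved by over 1.5 times. With the array turned the dye of the sample coincides with the culture, so a dye term was not run apart. Protein identity between the members was not run, as no sequences were used here.

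Counts of calls changed most with array 0a. As labelled, the aldo-keto reductases called lower were 0, 1 and 0 at 3, 30 and 150 min. The alcohol dehydrogenase and Ehrlich genes called higher were 2, 2 and 0, and those called lower 0, 0 and 0. The Yap1 list had 6, 0 and 0 higher, and 0 and 0 lower at 30 and 150 min. Where the unadjusted p of limma was under 0.05, these counts were 1, 4 and 2 for the aldo-keto reductases, 6, 2 and 1 higher and 2, 1 and 1 lower for the alcohol dehydrogenase and Ehrlich genes, and 9, 1 and 0 higher and 0 and 1 lower for the Yap1 list. With the shift to the control spots the aldo-keto reductases lower at 150 min were 3, 12 alcohol dehydrogenase and Ehrlich genes were higher and 1 lower at 3 min and 4 were lower at 150 min, and the Yap1 list had 6 higher after 30 min, and 7 higher with 1 lower after 150 min. With only the times compared in the fit, 3 aldo-keto reductases were lower at 150 min, and 3 alcohol dehydrogenase and Ehrlich genes were higher and 1 lower at 3 min, with 5 higher after 150 min. Leaving out each array in turn gave 4 to 11 of these higher and 1 to 3 lower at 3 min, and 3 to 5 aldo-keto reductases lower at 150 min. The 11 came without culture b at 0 min, the 1 without culture a at 3 min, and the 3 aldo-keto reductases without culture b at 0 min or culture a at 150 min.

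Of 60 differences of single members, 22 had the opposite sign with the array of culture a at 0 min as labelled, 18 with the shift to the external control spots, 8 with 1 loess curve per array and 1 with the deposited table, and none with normexp background correction, without dim spots, with the culture block or with only the times compared.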
